A study of Drosophila melanogaster with 3 samples.

Results

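The maternal coordinate and gap genes are the genes at the top of the cascade that divides the fly embryo from head to tail. This account covers 10 of them, taken by name from the Ensembl annotation of the fly genome out of 13945 protein-coding genes on the main chromosome arms: bcd, cad, hb, Kr, kni, knrl, gt, tll, hkb and oc. Each was examined with 10 kb of DNA on each side. The windows of the 10 genes held 11 of the 7827 reproducible binding summits of the protein CG30403.

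Binding was measured by ChIP-seq, which sequences the DNA recovered with a precipitated chromatin protein, in whole Drosophila melanogaster embryos of both sexes, aged 0 to 24 hours. All samples came from the same transgenic line, which stably expresses CG30403 joined at its C terminus to green fluorescent protein (GFP), and chromatin was recovered with an anti-GFP antibody. The samples form 1 group of 3 biological replicates, with no group to set them against, so that no test between conditions was possible. The precipitated protein was the tagged one, and a collection over the whole of embryogenesis mixes many cell types and stages, including stages after the early gap pattern has gone. Shared control chromatin entered the authors' processing and is not analysed here.

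In a fly embryo, maternal bicoid (bcd) RNA at the anterior pole and the Caudal (cad) protein gradient at the posterior set positions along the axis. The gap genes read these gradients and the signals from both poles, and encode transcription factors that repress each other's expression, so that each comes to be expressed in broad domains. They are driven by many separate enhancers that lie upstream of, downstream of and inside the genes, and several stay in use later, in the nervous system, gut or head.

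For each replicate the authors deposited regions ranked by a signal value from their peak caller, with 29373, 30000 and 30000 regions in replicates 1, 2 and 3 and 30000 in the pooled list. Their final "optimal" list of 7827 regions turned out to be the 7827 strongest regions of the pooled list. The weakest optimal region had a signal of 128.901 and the strongest region left out had 128.899, so the border between them is a rank and not a gap in the values. Signal values have no stated scale and are compared within a list only. Read depth is unknown. A summit is the highest point of a region, and a gene is called promoter-bound here when an optimal summit lies within 500 bp of any of its transcription start sites (TSSs). Coordinates are 1-based on build dm6.

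Only bcd among the 10 genes was promoter-bound. This is 10% of the genes (95% exact interval 0.253 to 44.5%), against 30.2% of all protein-coding genes. The 10 genes are a named list and not a random draw, so the interval shows only how coarse a count of 10 is. An optimal summit anywhere in the gene or its 10 kb flanks was found for 5 of the 10, namely bcd, cad, knrl, tll and oc (50%, 95% exact interval 18.7 to 81.3%), against 74.9% of all protein-coding genes. The remaining 5 genes, hb, Kr, kni, gt and hkb, had no optimal summit in their windows. The members were chosen with earlier results of these data known, so the counts are descriptions and have no test.

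The windows of these genes held few other genes, and genes of that kind had fewer summits. The median number of other protein-coding genes with a TSS in the window was 0.5 for the 10 genes and 5 for all protein-coding genes. A comparison added after the values were seen used only genes with at most 1 such neighbour, which leaves 8 of the 10, all but bcd and hkb. Of these 8, 4 had a window summit, against 44.2% of the 1623 protein-coding genes of this kind, and 0 of 8 were promoter-bound, against 10.9%. With 8 genes, and without bcd, how near these shares lie to either background cannot be judged. Whether the number of neighbours accounts for the low counts was not tested. Gene length moved the background less. By length, 2 of the 6 genes under 5 kb had a window summit (71.9% of all genes of that length), 1 of 2 from 5 to 15 kb (84.2%) and 2 of 2 of 15 kb or more (83.5%).

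**Figure D1:**
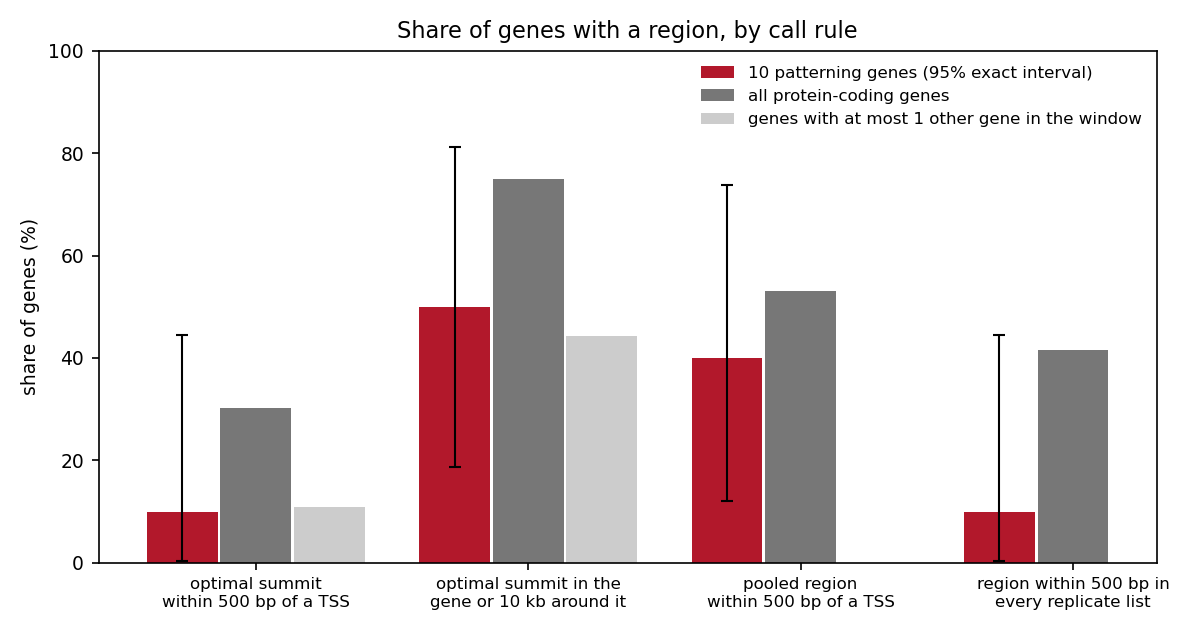
Share of genes (%) that meet each of 4 call rules, for the 10 patterning genes (red, with 95% exact intervals), all protein-coding genes (dark grey) and, for the rules on optimal summits, genes with at most 1 other protein-coding gene in the window (light grey). The red bars stand at 10, 50, 40 and 10%, below the dark grey bars at 30.2, 74.9, 53.0 and 41.6%, while the light grey bars stand at 10.9 and 44.2%. The light grey class leaves out bcd and hkb, so it is not matched to the red bars. Of the 8 patterning genes in that class, 0 were promoter-bound and 4 had a window summit (not drawn).

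The width of the window set the second count. With the gene body alone, 2 of 10 genes (cad and knrl) held a summit, against 16.1% of all genes, and with 20 kb on each side 9 of 10 did, all but Kr, against 87.1%. With the stronger 50% of the optimal peaks, 3 of 10 genes (bcd, cad and oc) kept a window summit, against 59.8% of all genes.

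**Figure D2:**
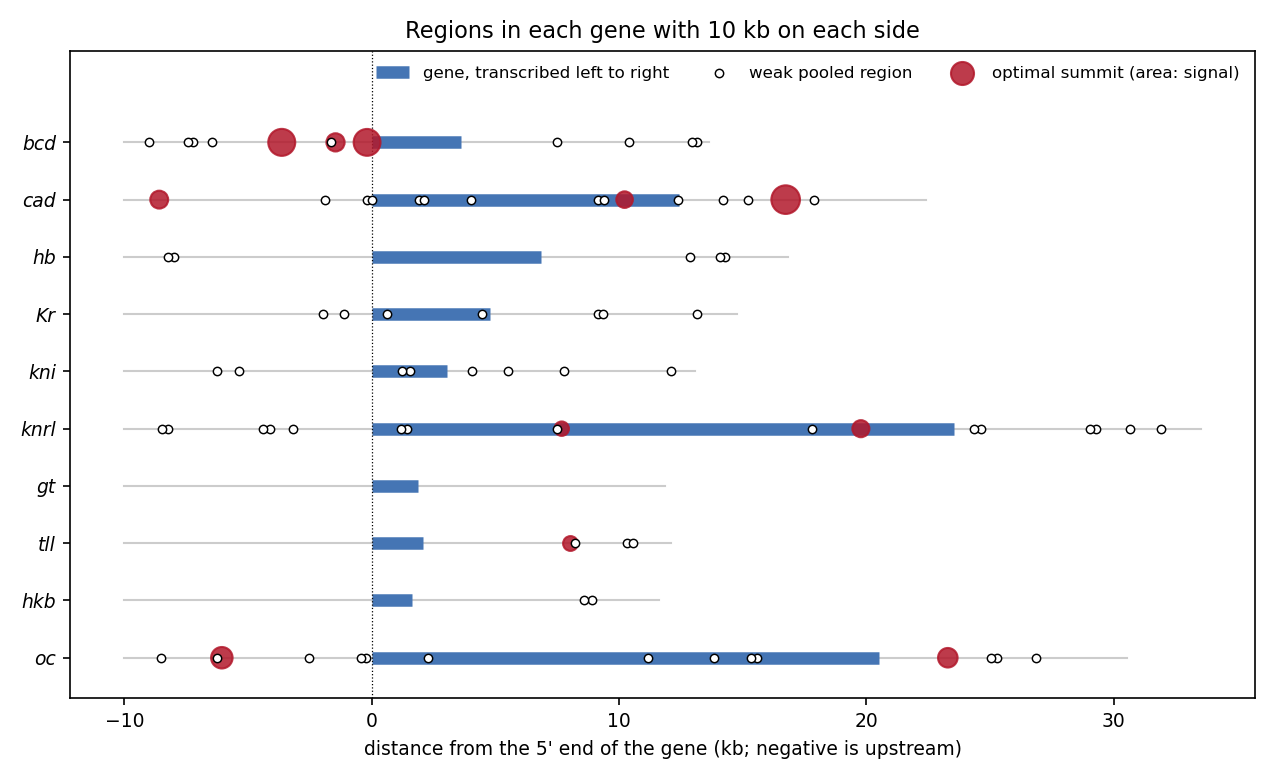
Position of every pooled region in the windows of the 10 genes, drawn with the 5' end of each gene at 0 and transcription to the right (x axis in kb). Red circles are the 11 optimal summits, with area in proportion to signal, open circles are the weak pooled regions below the optimal list, and blue bars are the genes; bcd has a red circle at its 5' end, and the gt row is empty.

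The bicoid gene had the summit nearest to a start site. bcd (FBgn0000166, 3R:6755842-6759466, minus strand) encodes the homeodomain morphogen that activates hb and other anterior genes, and its own RNA is laid down by the mother. The summit at 3R:6759652 lay 186 bp upstream of its TSS in intergenic DNA, in a region of 310 bp (3R:6759526-6759835). Its signal of 499 ranked 1428 of 7827 in the optimal list, above 81.8% of the optimal peaks. Its ranks were 2714, 1574 and 1061 in replicates 1, 2 and 3, and the replicate summits lay 187, 188 and 194 bp upstream of the TSS. Every replicate thus placed the region among its strongest 7827 and within 8 bp of the pooled summit. This summit was not shared with the promoter of any other protein-coding gene at that distance.

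The 250 bases just upstream of the bcd TSS are shown because they contain this summit, the promoter summit among the 10 genes. They are 3R:6759467-6759716 of the Release 6 assembly, read on the minus strand as bcd is transcribed and ending at the base before the TSS. Capitals mark the only match, on either strand, to any of 11 short motifs searched, GAGAG, which the GAGA factor binds.
bcd upstream: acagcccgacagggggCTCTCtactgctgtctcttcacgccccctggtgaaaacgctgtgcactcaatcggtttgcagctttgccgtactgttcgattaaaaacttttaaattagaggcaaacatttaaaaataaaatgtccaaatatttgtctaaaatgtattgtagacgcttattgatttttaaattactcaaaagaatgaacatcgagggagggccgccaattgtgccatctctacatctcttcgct
The match spans bases 234 to 230 upstream of the TSS, read as CTCTC on this strand, and lies in the 101 bases around the summit. GAGAG occurs in 25.7% of the same 250-base windows of all 13945 protein-coding genes, and in 8.38% of the 101-base centres of the optimal peaks. A match is a description of the letters and no evidence of binding by the GAGA factor.

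The bcd window held another 2 summits upstream of the gene. The nearer, at 3R:6760928, lay 1462 bp upstream of the bcd TSS in intergenic DNA, with a signal of 229 and ranks of 5261, 4813 and 4076 in replicates 1, 2 and 3. The farther, at 3R:6763101, lay 3635 bp upstream of bcd but 303 bp from a TSS of the neighbour Ama, which encodes a secreted immunoglobulin-domain protein. It had a signal of 504, the second highest of the 11, and ranks of 813, 1621 and 1742. It therefore counts as a promoter summit of Ama, and it also lies in introns of other Ama transcripts and of the noncoding RNA gene CR45593. The other protein-coding genes with a TSS in the window, zen and CG34297, had no optimal summit at their promoters. Downstream of bcd the nearest optimal summit was 31.9 kb away.

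The caudal gene had 3 window summits and none at its promoter. cad (FBgn0000251, 2L:20770731-20783135, plus strand) encodes a homeodomain activator of posterior gap genes, supplied both maternally and by the zygote. Its intronic summit at 2L:20780954 lay 10060 bp downstream of the nearer cad TSS, with a signal of 189.8 and ranks of 4086, 8079 and 4737 in replicates 1, 2 and 3. Replicate 2 placed it below its strongest 7827 regions. The strongest of all 11 summits, at 2L:20787465 with a signal of 566, lay 4.33 kb past the 3' end of cad and 191 bp upstream of Pomp, a proteasome maturation factor. Its ranks of 1930, 1086 and 1102 were high in all replicates, and by position it is the Pomp promoter peak. The remaining summit, at 2L:20762143 with a signal of 222, lay 8588 bp upstream of cad in an intron of dia, which encodes an actin-nucleating formin, with ranks of 3868, 5831 and 3704. Of the 3, only the intronic summit at 2L:20780954 lay inside cad, and the protein-coding TSS nearest to it was that of Pomp, 6702 bp away.

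The cad promoter itself had weak regions only. The pooled list held a region with its summit 179 bp upstream of the cad TSS (signal 63.2, rank 14781 of 30000) and another 21 bp downstream (signal 38.3, rank 23757). Replicate 3 had the upstream region (rank 14498), replicate 2 had a region 59 bp downstream (rank 15276), and replicate 1 had none within 500 bp.

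The sequences of 4 more summit centres are shown, inside or near cad, tll, knrl and oc. They are taken from the 8 summits that lie over 500 bp from any protein-coding TSS, and their motifs enter the counts given later. Of all 11 centres 5 held a match, and the 4 shown do not represent the rest. Each is 101 bases, 50 on each side of the summit, from Release 6, on the strand on which the gene is transcribed. Capitals mark matches to the 11 motifs.
cad intron, 2L:20780904-20781004: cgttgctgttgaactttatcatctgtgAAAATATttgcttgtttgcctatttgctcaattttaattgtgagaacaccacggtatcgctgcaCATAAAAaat
tll downstream, 3R:30860291-30860391: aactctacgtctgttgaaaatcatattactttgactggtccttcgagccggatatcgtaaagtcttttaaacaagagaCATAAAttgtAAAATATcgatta
knrl intron, 3L:20612928-20613028: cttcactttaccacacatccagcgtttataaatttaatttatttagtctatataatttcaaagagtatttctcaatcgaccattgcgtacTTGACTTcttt
oc upstream, X:8656688-8656788: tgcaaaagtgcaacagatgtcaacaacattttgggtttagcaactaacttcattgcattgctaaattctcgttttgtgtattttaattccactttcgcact
In the cad intron the capitals are AAAATAT and CATAAAA, a Hunchback-type word whose first 6 letters are also the reverse complement of the Caudal word TTTATG. In the tll centre they are the Caudal word read on the other strand and AAAATAT. In the knrl centre they are the Tailless word AAGTCAA read on the other strand, and the oc centre holds no match.

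hunchback had no optimal summit near it. hb (FBgn0001180, 3R:8690980-8697822, minus strand) encodes a zinc finger protein supplied by the mother and made again by the zygote in the anterior of the embryo, from separate promoters. Neither annotated TSS, at 8697822 and 8694600, had a pooled or replicate region within 500 bp, or within 1000 bp. The nearest optimal summit was 17.8 kb from a TSS, and 16.3% of protein-coding genes were farther than that. The window held 5 weak pooled regions. The strongest of these had a signal of 81.0 and rank 11869 of 30000, and lay 11.1 kb downstream of the inner TSS, 1638 bp from the TSS of CG44227. It was found in every replicate, at ranks 13231, 15408 and 12763.

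The 4 trunk gap genes differed in what their windows held. Krüppel (Kr, FBgn0001325, 2R:25226611-25231394, plus strand), a zinc finger repressor of the central embryo, was the farthest from an optimal summit of all 10, at 43.4 kb, with 5.70% of protein-coding genes farther. Its gene lies near the end of the chromosome arm and in an intron of CG9380, and no optimal summit lay between it and that end. It had 7 weak pooled regions, the strongest 9.13 kb downstream of the TSS with a signal of 54.4 (rank 17001). That region was found at rank 17208 in replicate 2 and was not overlapped in replicate 3. In replicate 1 a region of rank 9043 overlapped it. The summit of that replicate 1 region lay 9.363 kb downstream of the TSS, nearer to another weak pooled region at 9.349 kb (signal 36.9).

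knirps and its neighbour knirps-like (knrl) encode related nuclear receptor-type repressors and lie on the same arm, and only knrl had optimal summits. kni (FBgn0001320, 3L:20692330-20695378, minus strand) had 8 weak regions, the strongest 5.36 kb upstream with a signal of 67.6 (rank 14000). That region ranked 17023 and 10161 in replicates 2 and 3 and was absent from the list of replicate 1. knrl (FBgn0001323, 3L:20597141-20620659, minus strand) had 2 intronic summits, 19.8 kb and 7.68 kb downstream of its TSS. The farther one, at 3L:20600885, had a signal of 202 and ranks of 8387, 4756 and 4688 in replicates 1, 2 and 3. The nearer one, at 3L:20612978, was the weakest of the 11 with a signal of 144, and ranked 7598, 8502 and 5928. Each thus missed the strongest 7827 of a replicate, the farther in replicate 1 and the nearer in replicate 2. A further optimal summit lay 10.2 kb upstream of knrl, just outside its window.

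giant had no pooled region at all. gt (FBgn0001150, X:2427113-2428967, minus strand) encodes a leucine zipper repressor of an anterior and a posterior domain. Its window of 21.9 kb held 0 of the 30000 pooled regions, as did the windows of 8.85% of all protein-coding genes. The nearest pooled summit lay 15.03 kb upstream and the nearest on the other side 29.1 kb downstream. Replicates 2 and 3 had no region in the window either, and replicate 1 had 1, at 846 bp upstream of the TSS, with rank 27317 of 29373.

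The terminal gap genes respond to the Torso receptor at both poles. tailless (tll, FBgn0003720, 3R:30852315-30854400, plus strand), a nuclear receptor repressor, had 1 optimal summit at 3R:30860341, 5.94 kb past its 3' end in intergenic DNA and 7180 bp from the nearest protein-coding TSS, that of the cuticle protein gene Cpr100A. Its signal of 152 ranked 6625, and its ranks of 7158, 6774 and 7182 in replicates 1, 2 and 3 all lay inside the strongest 7827. Upstream of tll the nearest pooled region was 23.5 kb away. The nearest upstream region of replicates 2 and 3 was also 23.5 kb away, and that of replicate 1 was 1.925 kb away. huckebein (hkb, FBgn0261434, 3R:4345015-4346646, minus strand), a zinc finger repressor, had no optimal summit in its window and 2 weak pooled regions. The strongest had a signal of 60.8 (rank 15311) and its summit in the coding sequence of CG1103, 124 bp downstream of the TSS of that neighbour. The nearest optimal summit lay 10.8 kb past the 3' end of hkb, again just outside the window.

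The head gap gene orthodenticle is annotated as ocelliless (oc). It (FBgn0004102, X:8630159-8650681, minus strand) encodes a homeodomain protein of the head, brain and midline. Its window held 2 optimal summits in intergenic DNA, on either side of the gene. The upstream one, at X:8656738, lay 6057 bp from the nearest oc TSS, with a signal of 319 and ranks of 3889, 3332 and 2324 in replicates 1, 2 and 3. The downstream one, at X:8627393, lay 2.77 kb past the 3' end, with a signal of 264 and ranks of 5415, 3855 and 3218. No other protein-coding gene had a TSS in the window, and both regions were in the strongest 7827 of every replicate. At the promoter the pooled list held weak regions 228 and 449 bp upstream (signals 64.4 and 38.8, ranks 14562 and 23444). Replicates 2 and 3 had the nearer one at ranks 16749 and 14934, and replicate 1 had none there.

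**Figure D3:**
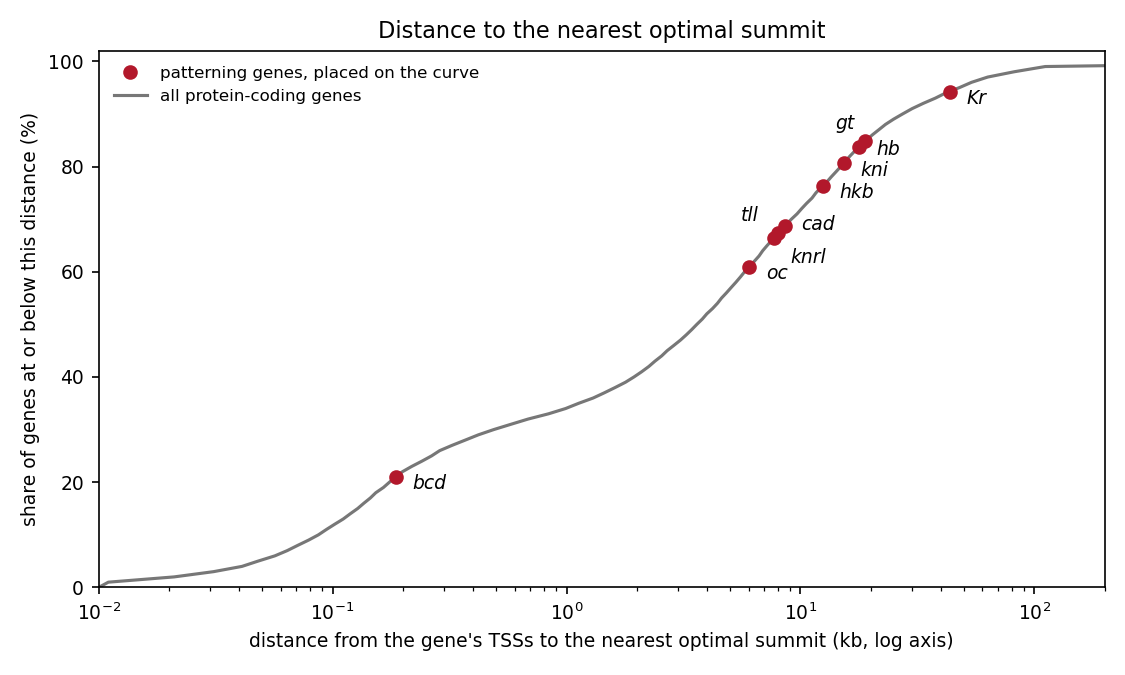
Distance from the TSSs of a gene to the nearest optimal summit (x axis, kb, log scale) against the share of all protein-coding genes at or below that distance (y axis, %). The red points are the 10 genes placed on that grey curve: bcd at 0.186 kb stands apart from the other 9, which run from oc at 6.06 kb to Kr at 43.4 kb.

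The median distance to the nearest optimal summit was 10.5 kb for the 10 genes and 3.61 kb for all protein-coding genes. In order, the distances were 0.186 kb for bcd, 6.06 kb for oc, 7.68 kb for knrl, 8.03 kb for tll, 8.59 kb for cad, 12.5 kb for hkb, 15.3 kb for kni, 17.8 kb for hb, 18.9 kb for gt and 43.4 kb for Kr. Neighbours in this order within 1 kb of each other are knrl, tll and cad.

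The 11 summits were of middling strength and mostly far from start sites. Their signals ran from 144 to 566 with a median of 229, against a median of 244 over the optimal list, and 5 of the 11 lay above that median. Of the 11, 8 lay over 500 bp from any protein-coding TSS (54.0% of all optimal summits do), with a median signal of 212 against 220.4 for all optimal summits so placed. Relative to the member gene, 5 lay upstream, 3 inside, all in introns, and 3 downstream. For 6 of the 11, the nearest protein-coding TSS was that of the member itself, and for Ama and Pomp a neighbour's promoter held the summit. Counted over the 280.3 kb of the windows, there were 3.92 optimal summits per 100 kb, against 5.85 per 100 kb over the arms.

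The replicates gave the same places for these summits. All 11 were overlapped by a region of each full replicate list, with summits at most 40 bp from the pooled summit (median 12 bp). This count and these shifts have no value over the whole optimal list beside them, so they show nothing particular to these summits. By the strongest 7827 regions of each replicate, replicate 1 held 10 of the 11, replicate 2 held 9 and replicate 3 held all 11, and 8 of the 11 (72.7%) were in all 3. Over the whole optimal list this share was 74.0%, and over the 5865 optimal peaks with signals in the same range it was 76.8%. The pooled list was made from the same 3 replicates, so these shares are no independent support for its summits. With an overlap of 50% of both regions required, 5 of the 11 (45.5%) were in all 3 replicates, against 53.1% of the optimal list. With the strongest 3913 regions of each replicate 4 of the 11 (36.4%) were, against 40.6%.

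**Figure D4:**
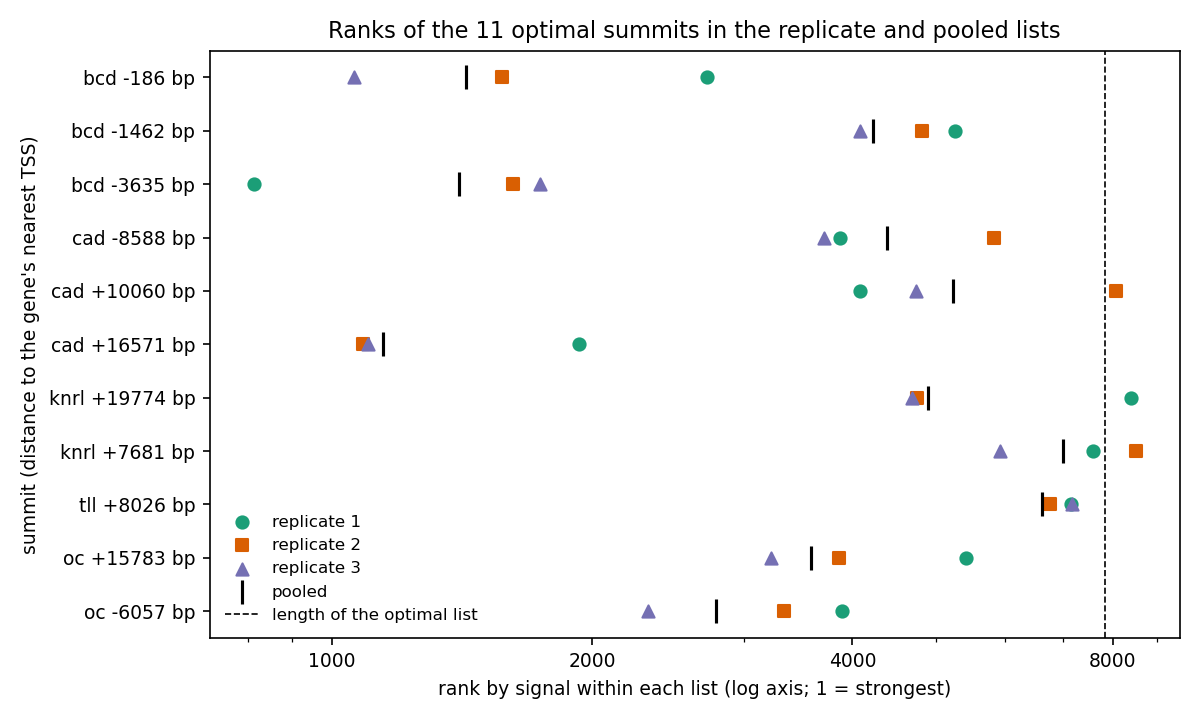
Rank of each of the 11 optimal summits by signal in replicates 1 (circles), 2 (squares) and 3 (triangles) and in the pooled list (bars), on a log axis where 1 is the strongest. Points right of the dashed line, at 7827, are outside the strongest regions of that replicate: the cad intronic and the knrl +7681 bp summits in replicate 2, and the knrl +19774 bp summit in replicate 1.

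Most regions in these windows were weak, as in the pooled list as a whole. Of 85 pooled regions in the windows 11 were optimal, against 7827 of the 30000 in the whole list. Within 500 bp of a TSS the pooled list had a region for 4 of the 10 genes, bcd, cad, kni and oc (40%, 95% exact interval 12.2 to 73.8%), against 53.0% of all protein-coding genes. The kni region was among the weakest, with its summit 394 bp downstream of the nearer TSS, a signal of 32.4 and rank 28044, and replicate 1 alone had regions within 500 bp there. All 3 full replicate lists had a region at the promoter of 1 of the 10, bcd, against 41.6% of all protein-coding genes. Without replicate 1 they did for 3 of the 10, bcd, cad and oc, against 47.1%. For the 5 genes without an optimal summit, the strongest pooled region of the window ranked from 11869 (hb) to 17001 (Kr), and gt had none.

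In all, the windows held 74 weak pooled regions, 49 of them around bcd, cad, knrl and oc. The median was 3.02 weak regions per 10 kb of window, with a range of 0 (gt) to 3.81 (bcd). Over all protein-coding genes the median was 1.78 (quartiles 0.875 and 2.76). No value for genes with few neighbours alone is given beside these, so the difference is a description only. The strongest weak region in any of the 10 windows had a signal of 116. Regions in these lists can overlap, so a count of them is not a count of separate sites.

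The words bound by these factors were found at a few of the 11 summits. Within 50 bp of the summit, on both strands, the Caudal word TTTATG was found at 2 of the 11 (18.2%, cad intron and tll), against 13.2% of the 7827 optimal summits. The Hunchback word CATAAAA was found at 1 (9.09%, cad intron), against 5.43%, and the Tailless word AAGTCAA at 1 (knrl at 3L:20612978), against 2.01%. With 11 summits a single match is already 9.09%, so differences of this size from the whole list cannot be resolved. AAAATAT, a word frequent at the optimal summits, was found at 3 (the cad intron, tll and the bcd summit at 3R:6760928), against 16.9%, and GAGAG at 1, the bcd promoter. The Bicoid word TAATCC, the Krüppel word AAGGGTT, the Giant word TTACGTAA, the Zelda word CAGGTAG, the repeat CACACAC and the E-box CAGCTG were at none of the 11, against 3.51, 1.01, 0.128, 0.345, 1.60 and 3.45% of all optimal summits. A word without a match says only that these letters are not in this window. The 101-base centres had a median GC content of 32.7%, from 17.8% (dia intron) to 46.5% (bcd promoter), against a median of 31.7% over all optimal summits (quartiles 26.7 and 38.6%).

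Other genes of the anterior-posterior system gave different counts by role. Of 37 such genes, 13 were promoter-bound (35.1%), near the 30.2% of all protein-coding genes. Among 11 genes of the germ plasm and of maternal RNA localisation 6 were bound. The strongest were vas, a germ line RNA helicase (signal 309), nanos, the posterior translational repressor (274), and tud (265). Next came pum, the fellow repressor of nanos (254), stau, a double-stranded RNA-binding protein (248), and exu, which acts in bcd RNA localisation (145). The promoter regions of nanos, stau, exu and vas also lay within 500 bp of a TSS of another gene. In the terminal pathway 5 of 12 were bound, led by the corepressor gene gro (signal 1254, rank 239 of the optimal list, 142 bp upstream of its TSS). The others were Ras85D (618, with a TSS of Rlb1 also within 500 bp), the repressor cic (445), the phosphatase gene csw (184) and the kinase gene Raf (152), while the receptor gene tor and the genes tsl and trk that activate it were not bound.

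Among 10 head gap and gap-like genes, 1 was promoter-bound. This was cnc, which encodes a leucine zipper factor of the head (signal 396, 288 bp downstream of a TSS). The other 9, ems, btd, slp1, slp2, croc, D, nub, pdm2 and kn, were not. By the window rule, 8 of these 10 genes had an optimal summit in the gene or its 10 kb flanks. So had 32 of all 37 genes of the wider system, against 74.9% of all protein-coding genes. Of 4 genes for maternal activators of zygotic transcription, Trl, the GAGA factor gene, was bound (signal 742), and zld, Clamp and Stat92E were not. No test of a difference between these roles was made.

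cad was the gene with the strongest window summit, and the signal of that summit was matched most closely by CG13643, mael and Ggt-1. By position that summit is the Pomp promoter peak, so the match is of a signal value and not of binding at cad itself. Likeness was the absolute difference in the strongest window signal, among the 169 genes of 5 to 15 kb that also had 3 window summits and none at the promoter. Their strongest summits had signals of 553, 580.0 and 536, against 566 for cad, a difference of 12.3, 14.3 and 29.2. Their nearest optimal summits lay 11938, 3595 and 3776 bp from a TSS, against 8588 bp for cad, and these distances did not enter the likeness.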

How the data were processed

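ChIP-seq regions of 3 biological replicates of 1 group were used, from 5 lists on build dm6. Regions were called against control chromatin, per the deposited text notes, with the group's list on the pooled replicates; chromatin was sheared to 200 to 800 bp, per the labels. No source used here names the aligner, peak caller or reproducibility threshold. The authors deposited for each region a signal value, a score with no stated scale, a −log10 q value, which is the same throughout the optimal list and was not used, and a summit offset. Lists on dm3 were not used.

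Summits were start plus offset. Genes and TSSs came from Ensembl release 115, sequence from the RefSeq copy of Release 6, whose arm names match dm6 and on which no region passes an arm end. Regions were ranked by signal within each list, and a summit counted as found in a replicate when an overlap of at least 1 bp joined its region to that replicate's strongest 7827. Intervals are Clopper-Pearson and cover counting of genes only. No test was made. Python 3.11.15, pandas 2.3.3, numpy 2.4.6 and scipy 1.17.1 were used, and the code was tested on simulated data.

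The members, gene lists and motifs were chosen with earlier results of these data known. Named items were the 10 genes, neighbours with the TSS nearest to a window summit, bound genes of the wider system (up to 12 by signal) and the 3 genes most like the leading member. exu, zen, CG34297, CG44227, CG9380, CG1103, CR45593 and the unbound genes of the wider system were named with their values already known. Alternatives covered promoter windows, flanks, list length, overlap rule, motif window and leaving out each replicate.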

Additional observations from a re-analysis of the deposited data

How the results depend on the processing

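Of 51 alternative values, 38 stayed within 1.5 times the main count. These include motif counts of 0 that stayed 0, and promoter windows wider than 500 bp, which cannot lower a count. They also include 4 of the 8 genes with at most 1 neighbour, set beside 5 of 10. The 38 is thus no measure of how stable the results are. The count of promoter-bound genes was 1 of 10 with windows of 250, 1000 and 2000 bp, any overlap, the 5' end only, the stronger 50% of the peaks and each replicate left out, while the share of all genes ran from 19.7% (stronger 50%) to 40.3% (2000 bp). It was 0 among the 8 genes with at most 1 neighbour, a subset without bcd that was chosen after seeing the data. Genes with a window summit, 5 in the main count, numbered 9 with 20 kb flanks, 2 with the gene alone and 3 with the stronger 50% of the peaks. The 11 window summits became 26 with 20 kb flanks and 5 with the stronger 50%. Of the summits, 8 in every replicate became 5 with a reciprocal overlap of 50% and 4 with replicate lists of 3913 regions. Leaving out a replicate gave 1 to 3 promoters with a region in every remaining full list, the 3 without replicate 1. With 100 bp around the summit, 4 summits held TTTATG and GAGAG each (23.8 and 19.2% of all optimal summits), and 2 held CATAAAA and AAGTCAA each (10.1 and 4.02%). No paired analysis was possible because there is 1 group. With 10 genes and 11 summits, and no read depth or untagged samples analysed here, small differences from the background cannot be resolved.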
